A study of Saccharomyces cerevisiae with 4 samples.

Results

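The array that set RNA of a Saccharomyces cerevisiae strain labelled cbf1, a knockout of the transcription factor gene CBF1, against wild-type RNA is described here across the genome. Its members are the open reading frames (ORFs) with a non-zero value in the column titled for the Cbf1 knockout, which are 5383 of the 6260 ORFs in the table. The other 877 are listed at exactly 0 and were treated as not measured. Each value is given relative to the median of the measured values, which was -0.034.

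Cbf1 is a basic helix-loop-helix protein that binds the sequence CACGTG. It helps recruit the activator Met4, with its cofactor Met28, to promoters of genes that take up sulfate and reduce it for methionine and cysteine synthesis. The zinc-finger proteins Met31 and Met32 recruit Met4 to an overlapping set of genes. Cbf1 also binds the centromere element CDEI and takes part in chromosome segregation.

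The series holds 4 two-channel arrays, 1 for each of the strains met28, met31, met32 and cbf1. The second channel is labelled wt+met for cbf1 and met28 and wt for met31 and met32. The labels' protocols describe colonies picked from plates of rich medium with G418, a drug that selects for a resistance marker, followed by growth in the defined medium YNB at 30 °C. At least 2 biological samples of each strain are mentioned there, whereas the deposited table has 1 column for each. The labels attach methionine to the reference channel and do not say whether the cbf1 culture received it. On this array, the deletion and a methionine difference between the cultures therefore cannot be told apart.

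With 1 column there is no replicate check, and no p-value or error can be given for any value. A gene is called high or low here when it lay at least 0.2 deposited log ratio units above or below the array median. The log base is not given in the sources used here. A distance of 0.2 is a 1.58-fold difference if the base is 10 and a 1.15-fold difference if it is 2. By this rule 257 measured ORFs were high (4.77%) and 266 were low (4.94%). These shares are the background for every list count below. Without subtracting the median the split was 146 high and 415 low, and with exact zeros kept as values it was 187 and 352. The middle of the distribution, from its lower to its upper quartile, ran from -0.075 to 0.073. The robust SD was 0.11, against 0.0778 on the met28 array, 0.0519 on met31 and 0.0608 on met32.

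**Figure D1:**
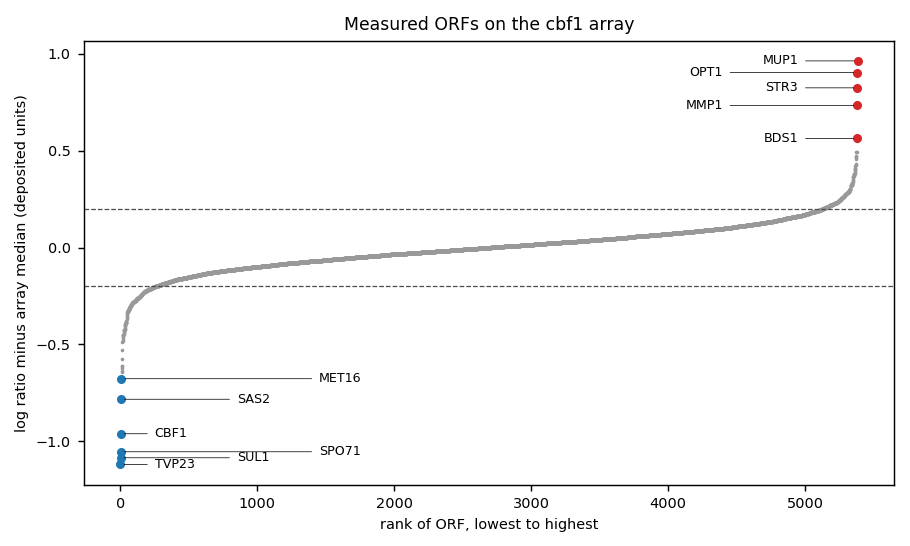
Measured ORFs of the cbf1 array in order of their value (x axis, rank from lowest to highest), with the log ratio minus the array median in deposited units on the y axis. Each point is 1 ORF and the dashed lines mark 0.2 above and below the median. CBF1 lies at -0.961 among the lowest ORFs, and the 5 highest labelled ORFs are sulfur genes from MUP1 at 0.963 down to BDS1 at 0.563.

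CBF1 itself, the deleted gene, was examined as a check of the label. It was at -0.961 on its own array, the fourth lowest of all measured ORFs, and at 0.017, -0.019 and 0.156 on the met28, met31 and met32 arrays. Only on the cbf1 array was it low. The dyes are labelled as Cy3 or Cy5 on every sample, which does not settle the direction of the ratio. The low value of CBF1 makes strain over wild type the likely orientation, and every "high" and "low" in the text rests on it. Read on a log10 scale the level of CBF1 was 9.14-fold below the median gene, and on a log2 scale 1.95-fold.

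Of the 3 genes on each side of CBF1 on its chromosome, 2 were high (4.77% over all ORFs) and 0 were low (4.94%). MNN14, the next gene on one side, was at 0.229, and APS2, an adaptor complex subunit gene 2 steps away on the other side, was at 0.290. PTK2, the direct neighbour on that side, was at 0.013. The remaining neighbours CDC8, NTA1 and RPA12 lay between -0.061 and -0.049. On the met28 array APS2 was at 0.128 and MNN14 at -0.048, and on the met32 array MNN14 was at 0.237.

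Sulfate entry and reduction were the lowest gene groups on the array. Both sulfate permease genes were low. So were 5 of the 8 measured genes that activate and reduce sulfate (4.94% over all ORFs), with 1 of the 8 high (4.77%). The permease SUL1 was at -1.085 and its paralog SUL2 at -0.610. The median of the 8 activation and reduction genes was -0.334, against 0 for all measured ORFs by construction.

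Between uptake and reduction, the activation steps were not low. MET3, which encodes ATP sulfurylase, was at 0.075, and MET14, which encodes the kinase that makes PAPS, was at 0.227. MET16, which encodes PAPS reductase, was at -0.677. MET22, which encodes the phosphatase that removes the nucleotide product of that reduction, was at -0.642. The genes of the sulfite reductase subunits, MET5 and MET10, were at -0.573 and -0.388. MET1 and MET8 make siroheme, the cofactor of sulfite reductase, and were at -0.279 and -0.128. MET8 was thus the only member after MET14 in the pathway outside the low range.

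The same genes were read on the other arrays. With the same reference label, the met28 array had SUL1 at -0.746, SUL2 at -0.802, MET16 at -0.577 and MET5 at -0.412. MET3 was at -0.190 there, and MET14 was listed at 0. On the met31 and met32 arrays, whose reference is labelled wt, the members of both sulfate lists lay between -0.128 (SUL2, met32) and 0.182 (MET10, met32). Low sulfate genes were thus found on the cbf1 and met28 arrays, labelled wt+met, and not on met31 and met32, labelled wt. Strain and reference label differ together between these arrays and cannot be told apart. The deleted gene itself was at -1.296 for MET28 on the met28 array and at -0.318 for MET31 on met31. MET32 was at 0.014 on the met32 array, so the knockout named in that array's label is not visible in the value of its own gene. What a shared reference RNA, if there was one, contributes to the likeness of the cbf1 and met28 arrays was not tested.

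Joining sulfide to the carbon skeleton gave lower values for the sulfur-specific genes than for the shared aspartate branch. MET2, which encodes homoserine acetyltransferase, was at -0.314, and MET17, which encodes the enzyme that fixes sulfide into homocysteine, was at -0.214. The branch genes HOM2, HOM3 and HOM6 were at -0.028, 0.162 and -0.012. MET2 was at -0.008 and MET17 at 0.074 on the met28 array, so these genes were low only on the cbf1 array. The difference between the arrays has no replicate check.

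The methyl cycle turns homocysteine into methionine and S-adenosylmethionine. Of its 10 measured genes 2 were high (4.77% over all ORFs) and 0 low (4.94%), with a median of 0.076. MHT1, which encodes the methyltransferase that uses S-methylmethionine, was at 0.494. MET12, a methylenetetrahydrofolate reductase gene, was at 0.210, and its isozyme gene MET13 was at 0.051. The methionine synthase gene MET6 was at 0.095, and the S-adenosylmethionine synthetase genes SAM1 and SAM2 were at 0.088 and 0.002. SAM4, which encodes the methyltransferase related to MHT1, was at 0.082. MET7, SAH1 and ADO1 lay between -0.035 and 0.070.

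Cysteine and homocysteine interconversion was on the high side. Of 5 measured genes 3 were high (4.77% over all ORFs) and 0 low (4.94%), with a median of 0.247. STR3, which encodes cystathionine beta-lyase, was at 0.824, IRC7, a beta-lyase gene, at 0.368 and STR2, which encodes cystathionine gamma-synthase, at 0.247. STR2 and STR3 act on the route from cysteine to homocysteine. CYS3 and CYS4, which run the opposite route, were at 0.120 and -0.039. STR3 was at 0.856 and IRC7 at -0.012 on the met28 array.

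Uptake of organic sulfur compounds was the highest group. Of 7 measured transport genes 4 were high (4.77% over all ORFs) and 0 low (4.94%), with a median of 0.315. The high-affinity methionine permease gene MUP1 was the highest of all ORFs at 0.963, which reads as 9.18-fold above the median gene on a log10 scale and 1.95-fold on a log2 scale. Its low-affinity relative MUP3 was at 0.175. MMP1 imports S-methylmethionine and was at 0.733. SAM3, a related permease gene for S-adenosylmethionine, was at 0.315. The amino acid permease genes AGP3 and AGP1 were at 0.548 and -0.078, and the cysteine transporter gene YCT1 at 0.132. GNP1 was listed at 0.

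Several of these genes went the other way on the met31 array, where MUP1 was at -0.682, SAM3 at -0.322, MMP1 at -0.144 and MUP3 at -0.140. On the met28 array they were at 0.932, 0.356, 0.918 and 0.406. The met31 array has another reference label, so strain and reference differ together between these arrays and cannot be told apart.

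In the glutathione list the high genes were 1 of uptake and 1 of breakdown. OPT1, which encodes the glutathione and oligopeptide importer, was at 0.903, the second highest ORF, and DUG3, a subunit gene of the cytosolic glutathione degradation complex, was at 0.561. Its partner genes DUG2 and DUG1 were at 0.079 and 0.027. The synthesis genes GSH1 and GSH2 were at 0.180 and -0.003. GTT2, a glutathione transferase gene, was at 0.193 and its relative GTT1 at 0.018, while GLR1 and ECM38 were at -0.035 and 0.085. Of the 10 measured genes of this list 2 were high (4.77% over all ORFs) and 0 low (4.94%).

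Of 6 genes for other sulfur sources and sulfur sparing, 4 were measured and 2 were high (4.77% over all ORFs). BDS1, a sulfatase gene, was at 0.563 and NIT1, a nitrilase gene, at 0.473. The permease gene SEO1 and the low-sulfur pyruvate decarboxylase gene PDC6 were at 0.007 and -0.048 on this array. On met28 they were at 0.954 and 0.856. JLP1 and SOA1 were listed at 0 on the cbf1 array.

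Over the 8 sulfur lists together, 51 of 54 genes were measured, of which 14 were high, 9 were low and 28 were neither. These shares stand against 4.77% and 4.94% over all ORFs. The lists were written with the sulfur pattern of these data already known, so the contrast with the background is a description and no support.

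**Figure D2:**
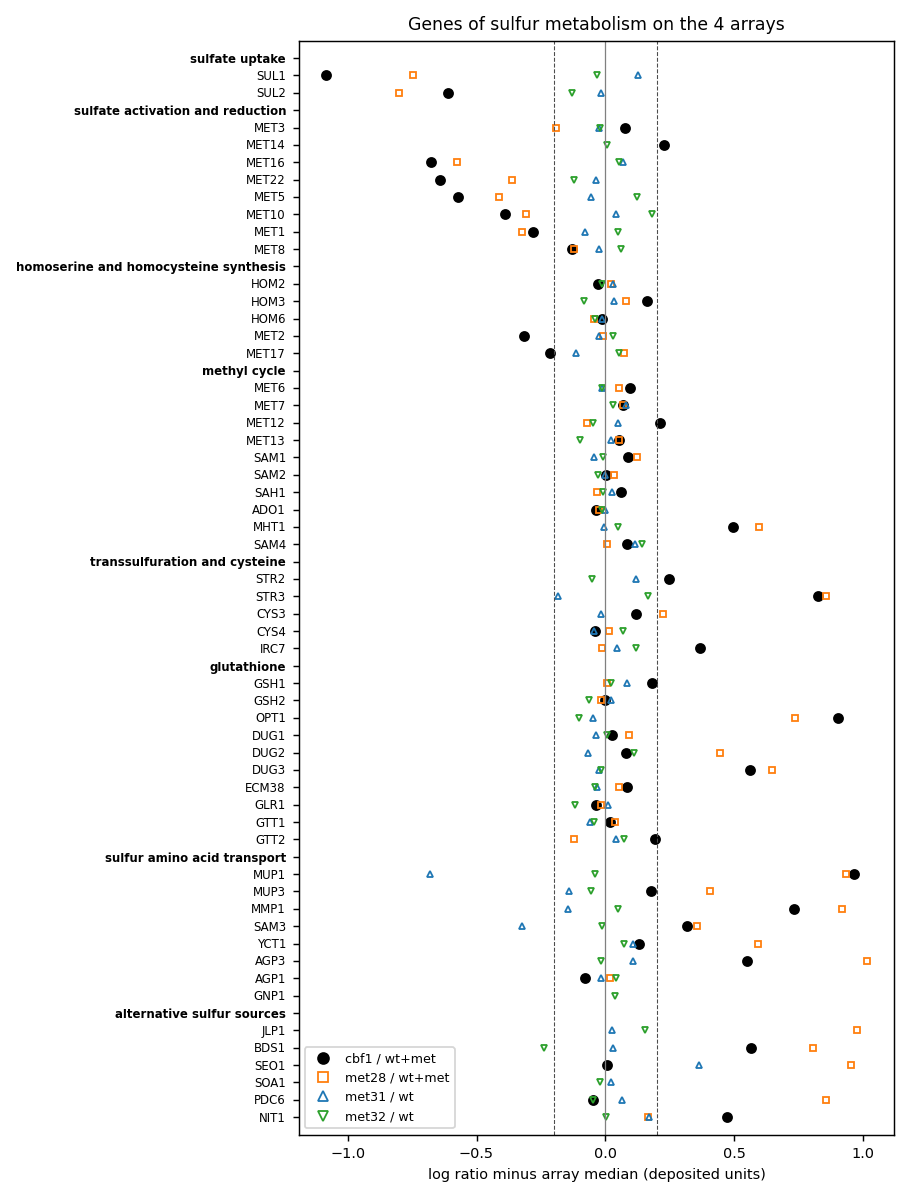
Values of the genes of the 8 sulfur lists (rows, grouped by role) on the 4 arrays, as log ratio minus the array's own median in deposited units (x axis), where each marker is 1 array and a missing marker is a gene listed at 0. Dashed lines mark 0.2 either side of the median. The filled cbf1 points lie at -1.085 for SUL1 and 0.963 for MUP1, on the same side as the open squares of met28, while the met31 and met32 points of the sulfate genes lie between -0.128 (SUL2) and 0.182 (MET10).

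Among regulators of the Met4 system other than CBF1, MET28 was high at 0.278. MET30 encodes an F-box protein through which Met4 is ubiquitinated and was at 0.076, and MET32 was at -0.032. MET4 and MET31 were listed at 0 on this array, so no level can be given for them.

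Paralogous genes had unlike values in some of the listed pairs and near values in others. MUP1 exceeded MUP3 by 0.788, MMP1 exceeded SAM3 by 0.418, MHT1 exceeded SAM4 by 0.412, and SUL1 was below SUL2 with a difference of -0.475. Outside sulfur metabolism PGM2 and PGM1, which encode phosphoglucomutases, were at 0.277 and 0.052. Near values were found for SAM1 and SAM2 (0.088 and 0.002), SHM1 and SHM2 (0.008 and 0.062) and GSY1 and GSY2 (0.198 and 0.264). The chaperone genes HSP82 and HSC82, whose sequences are near-identical and may share signal on an array, were at 0.035 and 0.014.

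Serine synthesis was low at its entry. SER3 and SER33, paralogs that encode the enzyme of the initial step, were at -0.450 and -0.233. SER2 and SER1, which complete the pathway, were at -0.097 and 0.179. GLY1, the threonine aldolase gene that makes glycine by another route, was high at 0.298. Of the glycine cleavage genes GCV2 was at -0.320, GCV1 at 0.163 and GCV3 at 0.024. Over the 15 measured genes of serine, glycine and one-carbon metabolism 3 were low (4.94% over all ORFs) and 1 was high (4.77%), and the median was 0.024. SER3 and SER33 were at -0.148 and -0.150 on the met28 array.

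Genes of the reserve carbohydrates glycogen and trehalose formed the group with the highest median outside sulfur metabolism, 0.152 over 16 measured genes. Of these 6 were high (4.77% over all ORFs), 1 was low (4.94%) and 13 lay above the array median. PGM2, GLC3 (the glycogen branching enzyme gene), GSY2 (glycogen synthase), TPS2 (trehalose phosphatase), NTH1 (neutral trehalase) and GDB1 (glycogen debranching enzyme) were at 0.277, 0.276, 0.264, 0.258, 0.239 and 0.205. Genes of synthesis and of breakdown were thus both among the high ones. GLG2, one of the glycogenin genes that prime synthesis, was at -0.207, and its relative GLG1 was at 0.053. The list's median was 0.056 on the met28 array, with GDB1 at 0.210, PGM2 at 0.122, GLC3 at 0.024 and GSY2 at -0.054. None of the 6 high values reached 0.3, and with the cutoff at 0.3 the count of high genes was 0.

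Among 20 measured heat shock and chaperone genes 3 were high (4.77% over all ORFs) and 1 was low (4.94%), with a median of 0.066. The small heat shock gene HSP26 was at 0.410 and the disaggregase gene HSP104 at 0.202. HSP12, a membrane-associated stress protein gene, lay at the cutoff itself. The stress-inducible chaperone gene SSA4 was low at -0.245, while SSA1 and SSA2 were at 0.145 and 0.143. HSP70 genes are similar in sequence and may share signal. Without centring, only 1 gene of this list was high.

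In the list of peroxide and thiol defence, 2 of 28 measured genes were high and 1 was low, beside 4.77% and 4.94% over all ORFs. The glutaredoxin gene GRX8 was at 0.468 (0.442 on met28), and MXR1, which encodes a methionine sulfoxide reductase, was at 0.422 (0.396 on met28). The mitochondrial superoxide dismutase gene SOD2 was low at -0.216. The thioredoxin genes TRX1, TRX2 and TRX3 lay between -0.078 and 0.023, and the catalase genes CTT1 and CTA1 were at -0.075 and 0.118.

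The phosphate regulon was examined because its activator Pho4 also binds CACGTG. Of 14 measured genes in the list 3 were high (4.77% over all ORFs) and 0 low (4.94%), with a median of 0.062. In a list of this size, 0 low genes is near the share over all ORFs. The high entries of the list were the polyphosphate polymerase subunit gene VTC3 at 0.280, PHM6 at 0.229 and CTF19 at 0.221. CTF19 encodes a kinetochore protein and is not a phosphate gene, although the list as counted holds it. It lies next to VTC3 on the chromosome and is counted in the kinetochore list as well. The high phosphate genes were thus VTC3 and PHM6. The counts and the median were not recomputed without CTF19. The phosphate transporter gene PHO84 was at -0.150 and the acid phosphatase genes PHO5, PHO11 and PHO12 at -0.073, -0.030 and 0.072. PHO84 was at 1.014 and PHO5 at 0.518 on the met28 array.

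Kinetochore genes were examined because Cbf1 binds centromeres. Of 26 measured genes 3 were high and 1 was low, beside 4.77% high and 4.94% low over all ORFs, with a median of -0.002. OKP1 was at 0.231, CTF19 at 0.221 and the NDC80 complex gene SPC25 at 0.213. NSL1, a subunit gene of the MIND complex, was at -0.426, and it was listed at 0 on the met28 array. CSE4, the centromeric histone gene, was at 0.000 and the CBF3 subunit genes CBF2, CEP3, CTF13 and SKP1 lay between -0.137 and 0.014. Without centring, 0 kinetochore genes were high and 3 were low.

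Mitochondrial respiration showed values in both directions for single genes. RIP1, the Rieske iron-sulfur protein gene of complex III, was high at 0.363. The cytochrome c genes CYC1 and CYC7 were both low, at -0.223 and -0.212. QCR8, a complex III gene, was at 0.083, CYT1 at 0.167 and the COX genes between -0.005 and 0.066. The list of complexes III and IV held 1 high and 2 low genes among 20 measured, beside 4.77% and 4.94% over all ORFs. In ATP synthase, ATP14 was low at -0.235, and TIM11, ATP4 and ATP17 were at 0.181, 0.179 and 0.156. The mitochondrial ribosomal protein list was centred on the array, with a median of -0.002 over 68 measured genes. It held 1 high gene (MRP8 at 0.377) and 2 low ones, beside 4.77% and 4.94% over all ORFs.

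Most cytosolic ribosomal protein genes lay slightly below the array median. Of 135 measured cytosolic ribosomal protein genes 99 were below the median and 36 above it, and the list's median was -0.041. High among them were 2 (4.77% over all ORFs), RPL41B at 0.240 and RPL35A at 0.217. Low were 3 (4.94% over all ORFs), namely RPL24A at -0.254, RPL4B at -0.207 and RPS8A at -0.202. Many of these genes exist as near-identical pairs that an array may not tell apart. The 51 measured ribosome biogenesis genes were centred at -0.035, with 1 low (NOP8 at -0.329) and 0 high, beside the same shares over all ORFs. Among other translation lists, the median was -0.030 over 25 measured elongation and initiation genes, with 1 high and 1 low. It was 0.017 over 18 measured cytosolic aminoacyl-tRNA synthetase genes, with 0 high and 1 low. In lists of 18 or 25 genes, counts of 0 or 1 are near the shares over all ORFs.

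Of the amino acid lists outside sulfur metabolism, those of arginine and lysine (15 measured) and of branched-chain amino acids (11 measured) held 0 high and 0 low genes. The histidine and aromatic list held 1 high gene among 20, ARO3 at 0.363, which encodes an enzyme of the initial step of aromatic synthesis. Its isozyme gene ARO4 was at -0.090. The purine (17 measured) and pyrimidine (9 measured) lists held 0 high and 0 low genes. The same held for ergosterol (23 measured), the proteasome (31 measured), phospholipid synthesis (16 measured), the vacuolar ATPase (11 measured), histones (10 measured) and cyclins (15 measured). Over all ORFs 4.77% were high and 4.94% low, so few or 0 called genes are near the background in lists of this size.

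Iron and nitrogen genes had single members at both ends. ATX1, which encodes the copper chaperone that supplies the iron oxidase, was low at -0.460. The siderophore transporter gene ARN2 was at 0.320 and TIS11, which encodes an RNA-binding protein that acts in iron limitation, at 0.233. The iron list had 2 high and 1 low gene among 15 measured, beside 4.77% and 4.94% over all ORFs. In the nitrogen list DAL5 and DAL3, of allantoate uptake and breakdown, were at 0.324 and 0.319, while DAL2, another gene of allantoin breakdown, was at -0.344. CAR2, the ornithine transaminase gene, was at -0.339 and the ammonium permease gene MEP2 at -0.201.

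Of the 59 lists in all, 44 had a median within 0.05 of the array median. Medians at least 0.1 above it were found in 4 lists, namely organic sulfur transport, transsulfuration, alternative sulfur sources and reserve carbohydrates. Medians at least 0.1 below it were found in 2, both of sulfate. The lists cover 1187 of the 5383 measured ORFs, so most measured ORFs belong to no list whatever their value. Of the high ORFs 198 of 257 belong to no list, and of the low ORFs 202 of 266, which is near the share over all measured ORFs.

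**Figure D3:**
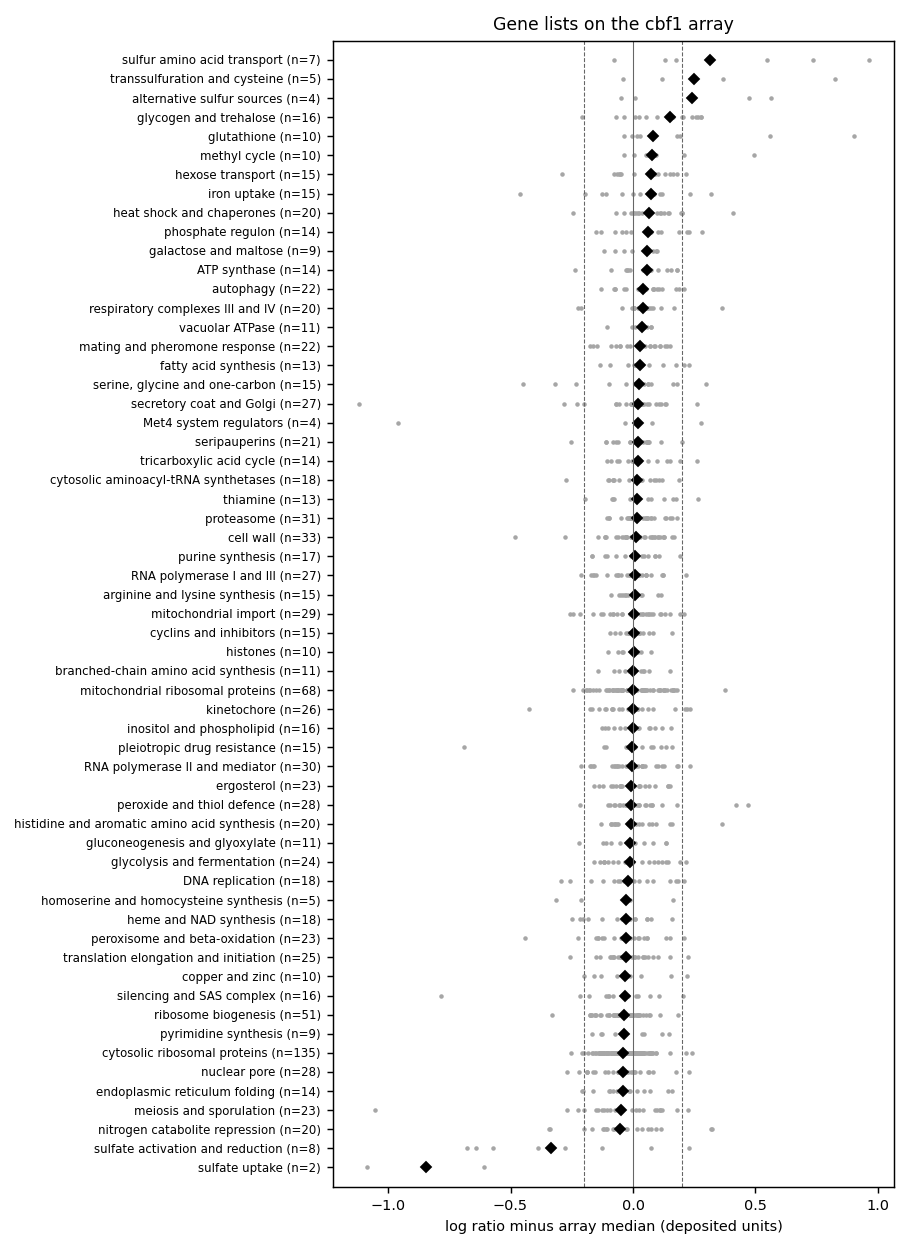
Gene lists on the cbf1 array (rows, with the number of measured members), ordered by their median, on an x axis of log ratio minus the array median in deposited units. Grey points are single genes, black diamonds are list medians and the dashed lines mark 0.2 either side. The sulfate lists stand at the bottom with medians of -0.334 and -0.847, and the 4 uppermost diamonds lie between 0.152 and 0.315.

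The 20 highest genes with their own symbol ran from MUP1 at 0.963 to the mismatch repair gene MLH2 at 0.380. Of these 9 belonged to the sulfur lists. Others outside all lists were TMA10 (0.467), the clathrin heavy chain gene CHC1 (0.455), the ubiquitin ligase gene HUL4 (0.430), ADI1, a methionine salvage gene (0.405), CTO1 (0.399), the mitochondrial NADH kinase gene POS5 (0.393) and UAF30, a subunit gene of an RNA polymerase I factor (0.384). Their values on the met28 array ran from -0.090 (UAF30) to 1.016 (AGP3), with CHC1 and MLH2 at -0.058 and -0.076 and CTO1 at 0.040. The same genes lay between -0.682 (MUP1) and 0.228 (HUL4) on met31 and between -0.240 (BDS1) and 0.166 (STR3) on met32. Since cbf1 and met28 share a reference label, their values are set side by side and no overlap is read from them.

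The 20 lowest genes with their own symbol ran from TVP23 at -1.119 to SER3 at -0.450, and 5 of them were sulfate genes. TVP23 encodes a Golgi membrane protein. SPO71, a sporulation gene, was at -1.054, SAS2, the catalytic subunit gene of a histone acetyltransferase complex involved in silencing, at -0.783 and the mitochondrial protein gene FMP23 at -0.691. PDR3, which encodes a regulator of drug resistance genes, was at -0.690. NPP2, a nucleotide pyrophosphatase gene, was at -0.635, TRI1 at -0.620 and the meiotic crossover gene MSH4 at -0.612. KIN82, a protein kinase gene, was at -0.485, the cell wall protein gene TIP1 at -0.482, KGD4, of the ketoglutarate dehydrogenase complex, at -0.473 and MIC27, of the mitochondrial inner membrane organising complex, at -0.456. On the met28 array, which measured 15 of these 20, they ran from -0.802 (SUL2) to 0.104 (TIP1), with TRI1 at -0.310, KIN82 at -0.256 and the genes NPP2, MSH4, PDR3 and KGD4 at -0.112, -0.028, -0.048 and 0.012. On met31 they lay between -0.076 (FMP23) and 0.231 (MSH4), and on met32 between -0.128 (SUL2) and 0.156 (CBF1).

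Known partners of some of these genes had other values. SAS4 and SAS5, whose products form the acetyltransferase complex with Sas2, were at -0.029 and 0.203. PDR1, which encodes a regulator related to Pdr3, was at 0.115, and PDR15, a transporter gene under both, was at 0.134. Of 23 measured meiosis and sporulation genes 3 were low (4.94% over all ORFs) and 1 was high (4.77%), SPS100 at 0.223.

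Several of the lowest genes were not measured on every array. An exact 0 on another array was found for 7 of the 20 lowest (TVP23, SPO71, SAS2, FMP23, PDR3, TIP1 and MIC27) and for 1 of the 20 highest (HSP26). None of the 5 sulfate genes among the lowest was listed at 0 elsewhere. Over the whole array, ORFs at 0 on at least 1 other array were low in 6.51% and high in 5.12% of 722 cases, and ORFs measured on all 4 arrays in 4.70% and 4.72% of 4661 cases.

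**Figure D4:**
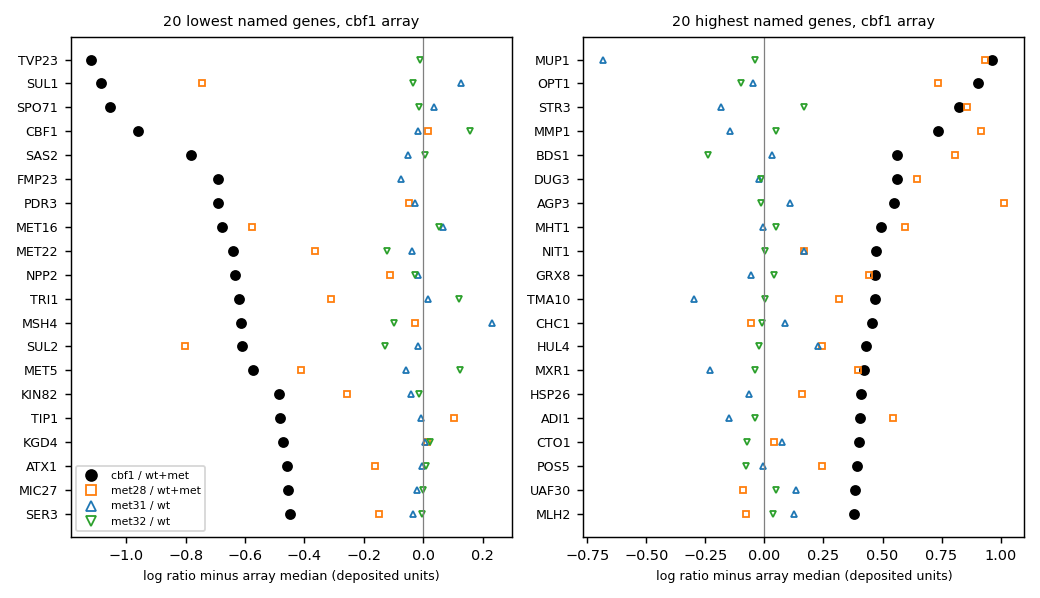
The 20 lowest (left) and 20 highest (right) named genes of the cbf1 array, with the log ratio minus each array's own median in deposited units on the x axis and 1 marker per array. A missing marker is a gene listed at 0. The right panel shows met28 squares near or beyond the cbf1 points for MUP1 (0.932) and AGP3 (1.016), and the left panel shows TVP23, SPO71 and SAS2 with no met28 marker.

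High and low ORFs were found on most chromosome arms, in uneven shares. Medians of the 32 chromosome arms, taken from the systematic names, lay between -0.026 (left arm of XIII) and 0.039 (left arm of XII). On the left arm of XIII 0 of 121 measured ORFs were high, and on the left arm of V 10 of 74 were high and 6 low. Between these arms the share high ran from 0.0% to 13.5%. The share low ran from 0.0% (right arm of I, 28 measured) to 9.35% (left arm of XV, 139 measured). Among 4615 pairs of measured genes next to each other in the RefSeq order, 13 were both high, 12 both low and 20 of opposite kind. The neighbour of a high gene was high in 6.37% of cases and the neighbour of a low gene low in 5.80%, beside 4.77% and 4.94% over all ORFs. The high pairs included MHT1 with MMP1 (0.494 and 0.733), whose products use and import S-methylmethionine, and AGP3 with AQY3 (0.548 and 0.258).

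The zeros were uneven across kinds of ORF. Of 486 ORFs that the RefSeq gene table does not list, 46.9% were at 0 on the cbf1 array, against 11.2% of the 5774 listed ones. Between arms the share at 0 ran from 7.3% to 33.3%. Of the 877 zeros 667 were at 0 on the met28 array as well, and 5 on all 4 arrays. The values next to 0 on the deposited scale, 0.001 and -0.001, occurred 18 and 33 times.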

How the data were processed

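Total RNA was labelled with Cy3 or Cy5 by direct incorporation and hybridised in pairs, per the labels' protocols. The authors deposited 1 signed value per ORF and strain, taken here as a log ratio of the channels. The sources used here do not give the log base, background correction, normalization, dye orientation or averaging, and channel intensities were not used. Exact zeros were treated as not measured, and the median of the non-zero values was subtracted per array. Symbols and gene order came from the RefSeq table of assembly R64, which lists 5774 of the 6260 ORFs. Of 1052 list entries, 5 were not matched. High and low mean 0.2 or more from the median. No test was possible with 1 column per strain, so lists are described by counts and medians, which the number of arrays limits. The members, lists and cutoffs were chosen with earlier results of these data known. Named genes are CBF1 and its 3 neighbours on each side, Met4 regulators, all sulfur list members, the 20 highest and 20 lowest genes with a symbol, up to 5 members of other lists by size, and paralog pairs. Members named beyond that rule (for example TRX1, QCR8, CSE4, PDR15 and the phosphatase genes) were chosen after their values were seen. List counting was tested on simulated shifts. Python 3.11.15, pandas 2.3.3, numpy 2.4.6 and matplotlib 3.10.9 were used. A planned search of promoters for CACGTG was not run, since promoter sequences were not used here.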

Additional observations from a re-analysis of the deposited data

How the results depend on the processing

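With 1 column per strain no replicate could be left out, and no paired analysis was possible because each strain has 1 column. The counts of high and low ORFs (257 and 266) followed the cutoff: 57 and 76 at 0.3, 522 and 521 at 0.15, and 135 and 135 for the outer 2.5% on each side. As deposited, without centring, they were 146 and 415. Over the alternatives that give list medians, the median of sulfate activation and reduction stayed between -0.384 and -0.33. That of sulfur amino acid transport stayed between 0.224 and 0.319, and that of glycogen and trehalose between 0.118 and 0.168. With the list mean in place of the median, the values were -0.298, 0.398 and 0.118. No list median of at least 0.1 in size changed sign in the alternatives run. The median of alternative sulfur sources, 0.240 over 4 genes, was 0.013 with zeros kept and 0.477 over ORFs measured on all 4 arrays. The promoter comparison and its alternatives were not run.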

Other observations

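Some gene groups were looked up only after the extreme genes had been seen, so their counts are descriptions. In methionine salvage and polyamine synthesis, ADI1, which encodes the dioxygenase of the salvage cycle, was at 0.405, and SPE2, which encodes S-adenosylmethionine decarboxylase, was at -0.277. The other 8 measured genes of this group were in neither range, and its median was -0.007. It thus held 1 high and 1 low gene among 10 measured, beside 4.77% and 4.94% over all ORFs. ADI1 was at 0.546 on the met28 array and SPE2 at 0.002.

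Assembly factors of the respiratory complexes were at both ends. BCS1, which encodes the protein that inserts Rip1 into complex III, was at -0.431, while RIP1 was at 0.363. MSS51, which acts in the synthesis of cytochrome oxidase subunit 1, was at -0.329, PET117, another cytochrome oxidase assembly gene, at 0.373 and CBP3 at 0.243. The group held 2 high and 2 low genes among 29 measured, beside 4.77% and 4.94% over all ORFs, with a median of 0.020. In the INO80 chromatin remodelling complex IES5 and IES6 were at 0.297 and 0.289, and the other 10 measured subunit genes were in neither range. That is 2 high and 0 low genes among 12 measured, beside the same shares over all ORFs. IES6 is the direct neighbour of GLY1 (0.298). A pair of ORFs with consecutive systematic names had opposite values: MAE1 (YKL029C), the malic enzyme gene, at -0.382 and YKL030W, which the RefSeq table does not list, at 0.492.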
